A study of Mus musculus with 22 samples.

Results

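The 43 genes described here encode proteins of the actin cytoskeleton and of focal adhesions, and were chosen by gene symbol from a list of actins, filament proteins, adaptors, integrins and the transcription factor Srf. Of these, 40 had a row among the 11208 genes of the expression table, and Tagln, Cnn1 and Ilk were not analysed here. Polyadenylated RNA came from mouse NIH/3T3 fibroblasts, an established immortalized cell line, into which a doxycycline-inducible construct had been integrated. The E2F1 line carried a construct for the cell cycle transcription factor E2F1, and the EV line carried the empty vector. Both lines were starved for 48 h in 0.25% serum, which brings fibroblasts to a resting, G0-like state. The E2F1 line was collected at 0, 2, 6 and 12 h of 500 ng/ml doxycycline, and the EV line at the same times of doxycycline or at 2, 6 and 12 h after 10% serum was added. Each of these 11 groups held 2 libraries, 22 in all, and the labels do not say whether the replicates were separate cultures, so p-values measure the spread between these libraries. Serum libraries came from the EV line only and were compared with EV 0 h, the same libraries that served EV doxycycline. No starved library without doxycycline was taken after 0 h, so effects of doxycycline and of further time in low serum cannot be told apart. The labels do not say whether each line was 1 clone or a pool.

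Actin monomers assemble into filaments, which myosin and tropomyosin turn into contractile bundles and which crosslinkers such as the filamins and α-actinins hold together. At focal adhesions, adaptors such as talin, vinculin, paxillin and zyxin tie these filaments to integrins, the receptors that bind the extracellular matrix. Serum activates the GTPase RhoA, actin polymerizes, the cofactors MRTF-A and MRTF-B are freed from actin monomers and enter the nucleus, and with serum response factor (SRF) they activate many genes of this set through a DNA element called the CArG box. In fibroblasts the smooth muscle isoforms of this set are known as marks of the contractile, myofibroblast-like state.

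Each value in the table is a normalized count, which the authors had rounded to a whole number, with totals of 34014608 to 46057140 per library, and read depth is unknown. Changes are given as log2 changes of (value + 1) from a limma model of all 22 libraries, ± its standard error (SE), and a gene was called higher or lower at a Benjamini-Hochberg adjusted p under 0.05 over all 11208 genes. E2f1 itself in the E2F1 line measured 1703 and 1637 at 0 h, 1535 and 1755 at 2 h, 3806 and 3602 at 6 h and 2683 and 2845 at 12 h. The 2 h pair thus overlapped with the 0 h pair, and the 6 and 12 h pairs lay above it. In the EV line E2f1 measured 1635 and 1655 at 0 h and 4615 and 4247 at 12 h of serum. That serum pair lay above the E2F1 line at 12 h. At 2 h the EV libraries stood apart. Ddx3y, which was high in the E2F1 line, measured 9 and 4 at EV 0 h but 103 and 71 at EV doxycycline 2 h and 132 and 170 at serum 2 h, against 316 to 580 in the E2F1 line. The same held for other genes that set the lines apart. Over the 37 genes at least 2-fold higher in every E2F1 than in every EV doxycycline library of 0, 6 and 12 h, the EV doxycycline 2 h libraries lay at a median of 0.477 and 0.468 of the log2 distance from the EV to the E2F1 level, and serum 2 h at 0.364 and 0.448. Whether the EV 2 h cultures or libraries held RNA of the E2F1 line was not tested, and this bears on each EV 2 h value below, serum included. The lines' own 0 h values and the later times are therefore given beside them. All 10 fibroblast markers had a row, none of 10 striated muscle, 6 epithelial and 4 endothelial markers had one, and 2 of 8 smooth muscle markers and 1 of 4 blood markers (Cd14) did.

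Before any stimulus the resting cells already expressed most of the set. Per kilobase of exon, the cytoplasmic actins led at EV 0 h, with a mean of 24270 normalized counts per kb for Actb and 17000 for Actg1, followed by Tpm4 at 8743, Cfl1 at 8591 and Flna at 7394. At the other end stood 4 genes of contractile or muscle type: Myl9 at 184.6, Fhl1 at 17.64, Actg2 at 15.41 and Tnnt2 at 0.129 normalized counts per kb. The smooth muscle actin Acta2 was not among them, at 3360 per kb. Lengths were those of all annotated exons, and 51.1% of the 100-base windows of the Actg1 exons occur in 6 other genes, so its level is uncertain.

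SRF binds the CArG box, 10 bases written as CC, then 6 bases that are each A or T, then GG. Among the 35 genes of the set with an entry in the RefSeq promoter table (GRCm38.p6, 250 bases before to 50 after each start), 8 held such a box on either strand, or 22.9%, against 1.51% of the 8609 table genes with an entry. With 1 G or C allowed among the 6 central bases, it was 12 of 35, or 34.3%, against 10.2%. The set was listed under the label of an SRF-dependent serum response. A higher share of boxes may therefore follow from how its genes were chosen. Actg2, Actb, Diaph1, Pxn and Parva had no entry. The boxes of Srf, Vcl, Actg1, Myl9, Cnn2 and Fhl1 are shown with 20 bases on each side, since these genes carry much of what follows, and capitals mark the box. The last 2 lines are the adjoining windows of Acta2, whose boxes each hold 1 such mismatch.
Srf chr17:46556215-46556264 minus strand: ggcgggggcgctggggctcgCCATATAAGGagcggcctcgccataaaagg
Srf chr17:46556195-46556244 minus strand: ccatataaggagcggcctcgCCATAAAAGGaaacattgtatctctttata
Vcl chr14:20929151-20929200 plus strand: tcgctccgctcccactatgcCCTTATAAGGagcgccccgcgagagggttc
Actg1 chr11:120348556-120348605 minus strand: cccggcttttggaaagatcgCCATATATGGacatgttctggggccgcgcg
Myl9 chr2:156775283-156775332 plus strand: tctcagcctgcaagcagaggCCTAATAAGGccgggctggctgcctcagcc
Cnn2 chr10:79988524-79988573 plus strand: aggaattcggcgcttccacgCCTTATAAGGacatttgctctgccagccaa
Fhl1 chrX:56779561-56779610 plus strand: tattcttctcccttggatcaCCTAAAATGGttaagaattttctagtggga
Acta2 chr19:34255428-34255477 minus strand: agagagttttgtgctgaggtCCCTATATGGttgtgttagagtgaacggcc
Acta2 chr19:34255378-34255427 minus strand: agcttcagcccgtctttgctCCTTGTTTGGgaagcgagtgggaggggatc
Each is written 5′ to 3′ on the strand of its gene. Cnn2 and Vcl held the same 10 bases, 56 and 227 bases before their starts. The Srf promoter held 2 boxes, 82 and 62 bases before its start, so the second lies in lower case within the first window. Myl6 and Fhl2 also held a box. A match is a description of the letters and not a measured binding site.

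**Figure D1:**
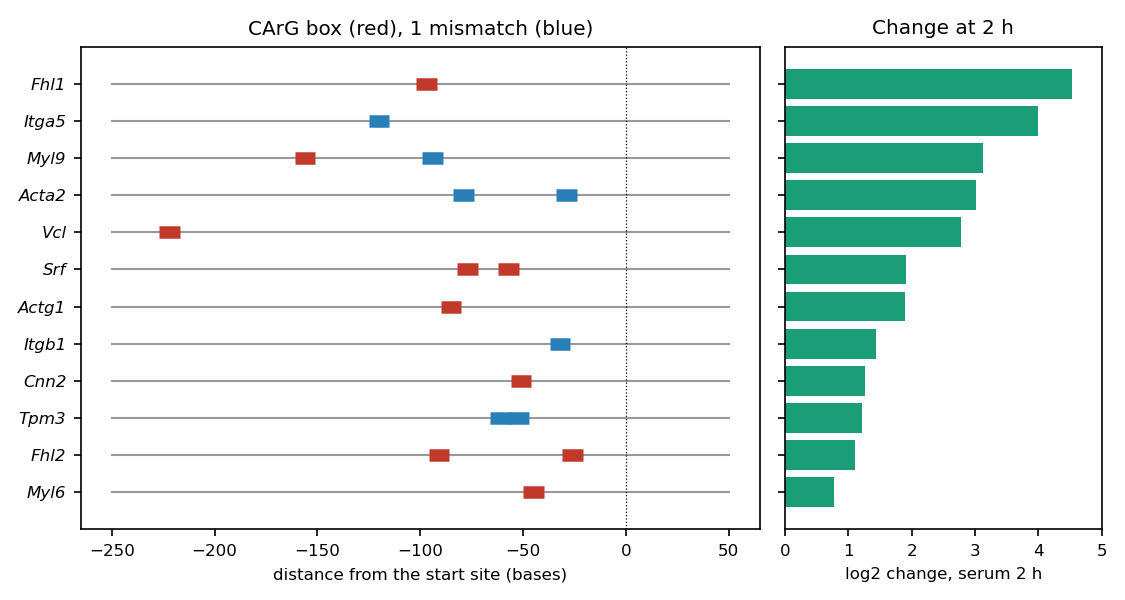
CArG boxes (red) and boxes with 1 mismatch (blue) by their distance in bases from the start site, for the 12 genes that hold either, with the log2 change at 2 h of serum beside each gene (bars from 0). Boxes lie within 227 bases before a start, and the genes' log2 changes run from 0.77 (Myl6) to 4.53 (Fhl1). Fhl1 owes its row to its serum values.

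Serum raised nearly the whole set. At 2 h, 39 of 40 genes were called higher and none lower, with a median log2 change of 1.30. Tnnt2, Actg2 and Fhl1 owe their rows to their serum values, as described below. Their rises are therefore not evidence in this and the later serum counts. Of all 11208 genes, 37.5% were called higher and 33.5% lower, with a median of 0.03. With equal totals the split at 2 h was 35 higher and 1 lower, the lower gene being Lims1, and under quantile normalization 31 and 2 (Lims1 and Parva). At 6 h, 36 were higher and 1 lower (36.5% and 31.0% of all genes), and at 12 h 29 were higher and 3 lower (36.0% and 29.7%), with medians of 1.19 and 0.53. Lims1, an adaptor of the integrin-linked kinase complex, was the only gene not called at 2 h, at 7000 and 7113 against 6947 and 7838 (log2 change -0.06). It was called lower under both other scalings, by 0.44 with equal totals and by 0.50 under quantile normalization. The summed counts of the 40 genes took 1.43 to 1.96% of the total in the 16 libraries without serum, 3.6 and 3.61% at 2 h of serum, 3.48 and 3.56% at 6 h, and 2.5 and 2.3% at 12 h. At 2 h, 37 of the 40 exceeded all 16 libraries without serum, both lines included, which held for 25.5% of all genes. The exceptions were Diaph1, Lims1 and Itgb5. In bulk RNA, more cells that express a gene and more RNA per cell cannot be told apart.

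**Figure D2:**
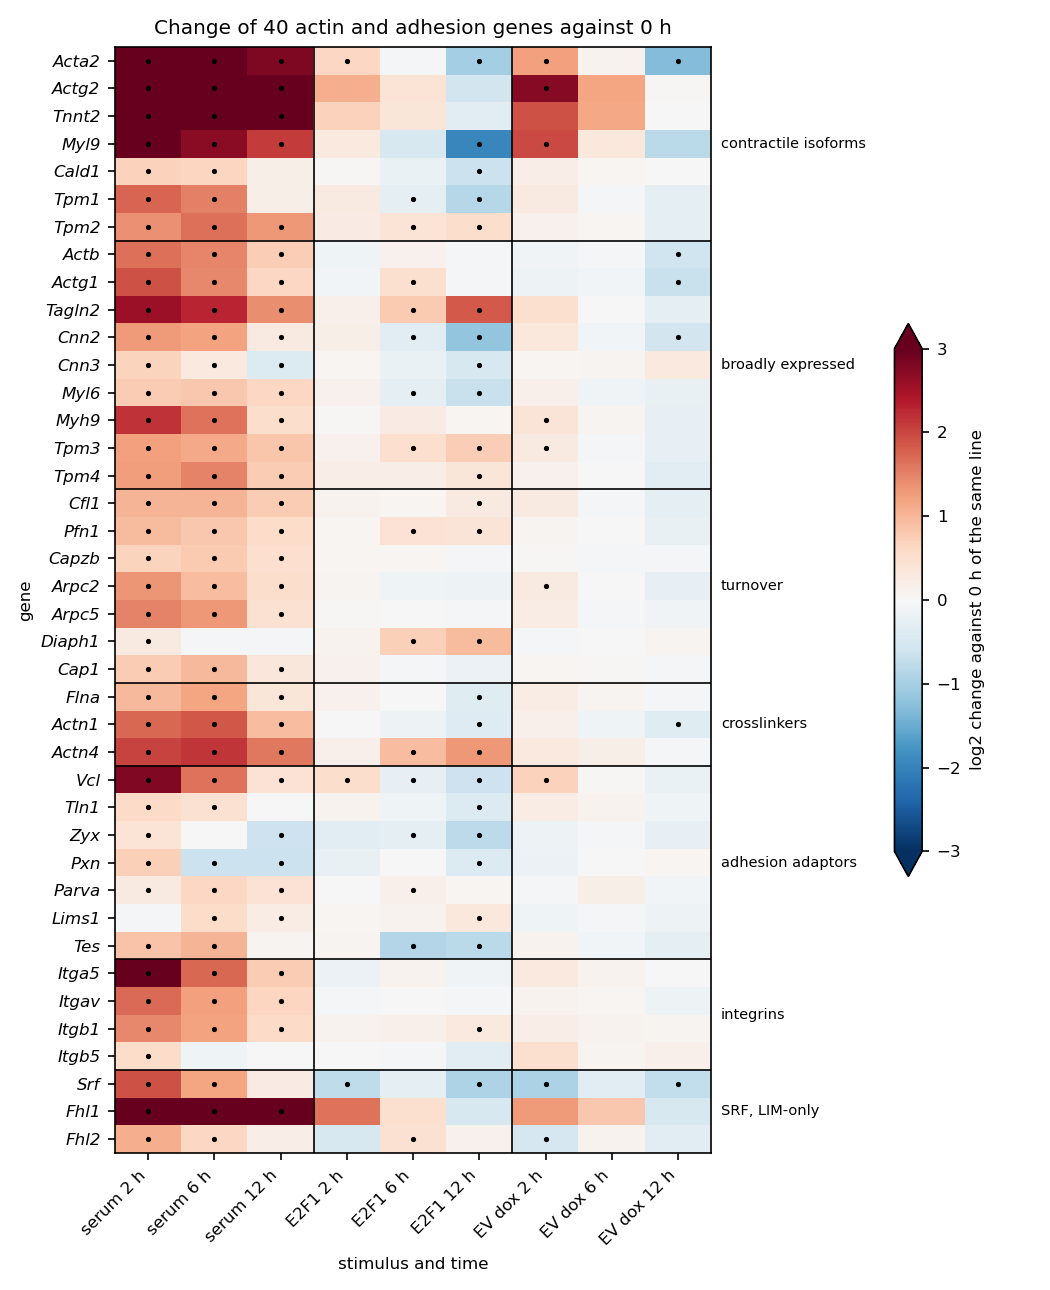
Log2 change of the 40 genes (rows, by role) at 2, 6 and 12 h of serum, E2F1 induction or doxycycline in the EV line (columns), each against 0 h of the same line, with dots at genes called by limma. Colour saturates at 3, which Tnnt2, Actg2 and Fhl1 passed at all 3 serum times. The serum columns are almost all red. The E2F1 12 h column holds 10 called rises and 15 called falls (31.8% and 29.7% of all genes).

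The contractile isoforms had the highest median log2 change of the roles, 3.01 over 7 genes at 2 h of serum, all 7 called higher. Tnnt2 and Actg2, counted among the 7, owe their rows to their serum values, as described below, which bears on this median. Acta2 (chr19:34241090-34255590, GRCm38), smooth muscle α-actin, measured 6729 and 8028 at EV 0 h, 56057 and 62434 at serum 2 h, 66721 and 65475 at 6 h and 51992 and 49641 at 12 h. Every serum library lay far above both starved ones and the level was held to 12 h. The log2 changes were 3.01 ± 0.14, 3.17 ± 0.14 and 2.79 ± 0.14, an 8.05-fold, 8.99-fold and 6.91-fold rise with adjusted p of 1.67e-12, 2.77e-12 and 3.51e-11.

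Actg2 (chr6:83512905-83536265), the enteric smooth muscle γ-actin, was barely present in starved EV cells and rose further. Its values were 30 and 18 at EV 0 h, 687 and 1447 at serum 2 h, 1788 and 1380 at 6 h and 1403 and 1165 at 12 h. The serum libraries lay above all libraries without serum, although the 2 h pair was wide. The log2 change was 6.02 ± 0.36 at 6 h (64.8-fold, adjusted p = 1.24e-10). Tnnt2, cardiac troponin T, measured 2 and 0 at EV 0 h and 484 and 384, 291 and 516 and 176 and 270 at 2, 6 and 12 h of serum. It did not exceed 11 in any library without serum, so no fold is given. Its log2 change of 7.96 ± 0.83 at 2 h (adjusted p = 9.17e-08) depends on the added 1. No gene of the table had a mean over all libraries under 99.6, which Tnnt2 could reach only through its serum values. The rise of Tnnt2 was thus fixed by its having a row, and the test cannot count as evidence of it. Actg2 would also have had a mean under 99.6 had its serum libraries stayed at the EV 0 h level. Its test therefore cannot count as evidence of a rise either. Other markers of striated muscle, 10 in the list, had no row.

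Myl9, the regulatory light chain of smooth muscle myosin, went from 188 and 241 to 1706 and 2048 at 2 h and was at 1153 and 726 at 12 h. Both 2 h libraries lay above all others of that gene, and the log2 change was 3.13 ± 0.24 (adjusted p = 1.42e-09). The tropomyosins divided with time. Tpm1 rose from 23500 and 27274 to 83395 and 86731 at 2 h, stood at 72533 and 72781 at 6 h and was at 30221 and 27143 at 12 h, where its log2 change of 0.18 ± 0.11 was not called (adjusted p = 0.151). Tpm2 rose from 6150 and 7250 to 19792 and 22354 at 6 h and was still at 16677 and 16177 at 12 h (log2 change 1.30 ± 0.09, adjusted p = 2.09e-09). Cald1, caldesmon, which holds back actomyosin, had called log2 changes of 0.68 and 0.64 at 2 and 6 h and 0.18, not called, at 12 h. The 2 h call of Cald1 was lost under quantile normalization (log2 change 0.15).

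**Figure D3:**
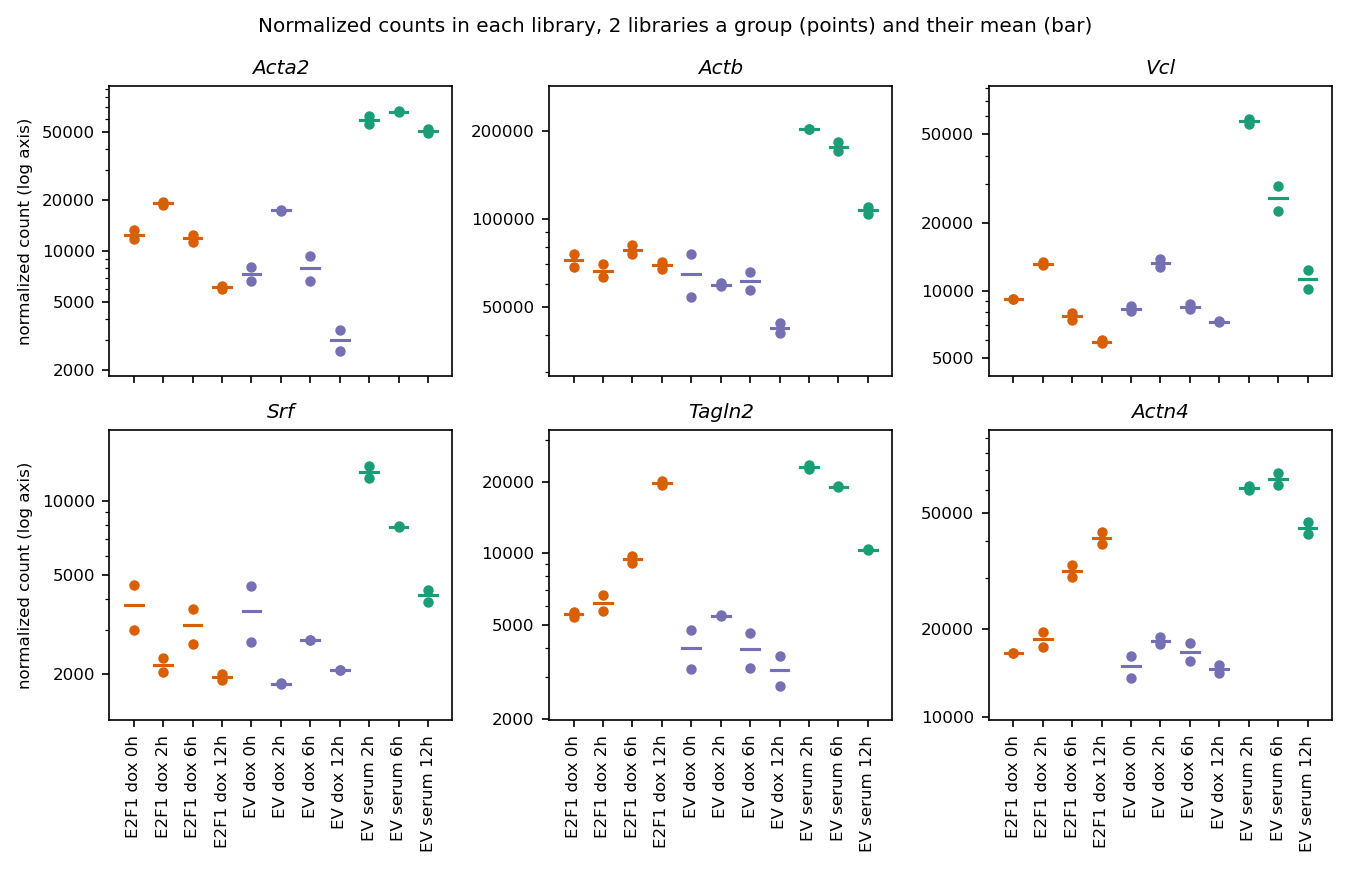
Normalized counts (log axes) of Acta2, Actb, Vcl, Srf, Tagln2 and Actn4 in each of the 22 libraries by group, with points for libraries and bars for the mean of the 2. Serum libraries (green) are highest for all 6 genes at 2 h, and Tagln2 and Actn4 also climb in the E2F1 line (orange), to 19516 and 20289 and to 43001 and 39198 at 12 h.

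The broadly expressed filament proteins also rose at 2 h, 9 of 9 with a median log2 change of 1.27. Actb (chr5:142903115-142906754), cytoplasmic β-actin, measured 54188 and 75876 at EV 0 h, 203166 and 203074 at serum 2 h, 170288 and 182466 at 6 h and 109548 and 104078 at 12 h. The starved pair was far apart, yet all 6 serum libraries lay above it, and the log2 changes were 1.66 ± 0.12, 1.46 ± 0.12 and 0.74 ± 0.12, all called. Actg1, cytoplasmic γ-actin, rose from 36304 and 54084 to 161978 and 168721 at 2 h (log2 change 1.90 ± 0.14, adjusted p = 1.35e-09). Its ratio with Actb shifted for a time, with 1.49 and 1.4 Actb counts per Actg1 count at EV 0 h, 1.25 and 1.2 at serum 2 h and 1.58 in both libraries at 12 h. Together the 2 actins made up 0.81 and 0.807% of the total at serum 2 h and 0.261 and 0.365% at EV 0 h.

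Tagln2 (chr1:172500047-172507380), transgelin-2, an actin-binding protein of non-muscle cells, had the largest rise of this group. It went from 3251 and 4747 to 23637 and 22756 at 2 h, 19029 and 19204 at 6 h and 10322 and 10400 at 12 h of serum, so that the serum and starved pairs of the EV line were well apart at each time. The log2 change at 2 h was 2.56 ± 0.16 (5.9-fold, adjusted p = 8.79e-11). Myh9, the heavy chain of non-muscle myosin IIA, followed with 2.16 ± 0.10, from 33285 and 35243 to 149946 and 156078. Cnn3, acidic calponin, was the one gene of the group that ended below its start: it was 13627 and 13662 at EV 0 h, 20888 and 22432 at serum 2 h and 10558 and 10024 at 12 h, with log2 changes of 0.67 ± 0.08 and -0.41 ± 0.08 (adjusted p = 0.000383). Under quantile normalization its 2 h call was lost (0.10) and its 6 h change of 0.29, called, became -0.09.

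Genes of filament turnover and nucleation rose less, 7 of 7 at 2 h with a median log2 change of 0.96. Arpc5, a subunit of the Arp2/3 complex that starts branched filaments, went from 5376 and 6076 to 15813 and 16238 (log2 change 1.49 ± 0.09, adjusted p = 4.57e-11). Arpc2, another subunit, changed by 1.32, Cfl1 (cofilin, which severs filaments) by 1.03, Pfn1 (profilin, which feeds monomers to growing ends) by 0.96, Cap1 by 0.75 and Capzb (capping protein β) by 0.66. These 6 genes were called higher at all 3 serum times, and the 2 h call of Capzb was lost under quantile normalization (0.17). Diaph1, the formin that elongates unbranched filaments, barely moved: 2012 and 1807 at EV 0 h, 2224 and 2422 at serum 2 h and 1907 and 1777 at 6 h. Its 2 h change of 0.28 ± 0.12 had an adjusted p of 0.0365, turned to -0.09 when libraries were scaled to equal totals, and lost its call without replicate 2 of either group.

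All 3 crosslinkers rose at each serum time. Actn4 (chr7:28893248-28962340), non-muscle α-actinin-4, measured 13643 and 16182 at EV 0 h and 61709 and 59638, 62403 and 68364 and 46543 and 42206 at 2, 6 and 12 h of serum. It kept more of its rise than its relative Actn1, with 1.58 ± 0.10 at 12 h (adjusted p = 4.59e-10) against 0.92 ± 0.09 for Actn1 (adjusted p = 8.41e-08), a difference between genes that was not tested. At 6 h Actn1 had stood at 43984 and 44841 from 11595 and 12726. Flna, filamin A, rose by 1.18 ± 0.09 at 6 h.

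Of the adaptors of focal adhesions, 6 of 7 were higher at 2 h (37.5% of all genes), median log2 change 0.58. At 12 h 3 were higher and 2 lower, near the shares over all genes (36.0% and 29.7%). Vcl (chr14:20929398-21033676), vinculin, which links talin to actin, measured 8081 and 8524 at EV 0 h, 55570 and 58630 at serum 2 h, 22699 and 29231 at 6 h and 12315 and 10173 at 12 h. The rise was sharp and mostly gone by 12 h, while both 12 h libraries still lay above the starved pair. The log2 changes were 2.78 ± 0.10, 1.63 ± 0.10 and 0.43 ± 0.10 (adjusted p = 9.47e-14, 1.55e-10 and 0.00107). In the annotation 38.6% of the 100-base windows of Vcl occur in Ap3m1, whose own log2 change at 2 h was -0.13 and not called (adjusted p = 0.154).

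Pxn and Zyx rose at 2 h and then fell below their start. Pxn, paxillin, a scaffold of adhesion signalling, measured 4810 and 4658 at EV 0 h, 7801 and 7791 at serum 2 h, 3232 and 2807 at 6 h and 3183 and 2866 at 12 h. Its 2 h pair was above all other Pxn values and its 6 and 12 h pairs were below the starved EV pair, with log2 changes of 0.72 ± 0.08, -0.65 ± 0.08 and -0.65 ± 0.08, all called. Zyx, zyxin, a sensor of tension at adhesions and stress fibres, measured 25696 and 24740, then 32451 and 34523, 28112 and 22741 and 16463 and 16280, with 0.41 ± 0.10 at 2 h and -0.62 ± 0.10 at 12 h. The 2 h change of Zyx was -0.07 under quantile normalization, and that of Parva (0.28) was -0.10 with equal totals and -0.22 under quantile normalization.

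Parva and Lims1, partners of integrin-linked kinase, peaked later. Parva measured 11142 and 11946 at EV 0 h and 17216 and 18354 at serum 6 h, and Lims1 6947 and 7838 and 10096 and 11376. Both 6 h pairs lay above all libraries without serum, with log2 changes of 0.62 ± 0.06 and 0.54 ± 0.07. Tes, testin, a zyxin partner, rose by 1.02 ± 0.13 at 6 h and was back at 2107 and 1856 at 12 h, against 1718 and 2017 at the start. Tln1, talin, which activates integrins, changed by 0.58 and 0.45 at 2 and 6 h, both called, and both calls were lost under quantile normalization.

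Among the integrins, Itga5 (chr15:103344286-103366763), the α subunit of the fibronectin receptor, had the steepest course. It measured 3682 and 3736 at EV 0 h, 59506 and 58410 at serum 2 h, 12530 and 11971 at 6 h and 6597 and 6063 at 12 h. At 2 h it was 15.9-fold above the starved cells (log2 change 3.99 ± 0.09, adjusted p = 6.23e-16), and the 3 serum times did not overlap. Its partner Itgb1, the β1 subunit shared by many receptors, went from 28171 and 29425 to 76308 and 79544 and 43874 and 41670 at 2 and 12 h (log2 change 1.44 ± 0.08 at 2 h). Itgav, the αv subunit of vitronectin receptors, rose by 1.69 ± 0.10. Itgb5, at 3950 and 2720 and then 4706 and 4960 at 2 h, was called higher only there, and that call was lost under both other scalings and without EV 0 h replicate 2.

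Srf and the LIM-only genes closed the set. Srf (chr17:46548329-46556175) measured 2675 and 4520 at EV 0 h, 12403 and 13786 at serum 2 h, 7939 and 7803 at 6 h and 3908 and 4375 at 12 h. The 2 and 6 h pairs lay above every library without serum, and the 12 h pair lay within the spread of the starved pair. The log2 changes were 1.91 ± 0.19, 1.18 ± 0.19 and 0.25 ± 0.19 (adjusted p = 6.85e-08, 3.34e-05 and 0.265). Fhl1, a LIM-only protein of muscle, went from 71 and 60 to 1149 and 2038 at 2 h and 2069 and 1866 at 6 h, with 1263 and 452 at 12 h, log2 change 4.89 ± 0.55 at 6 h. Had its serum libraries stayed at the EV 0 h level, its mean over all libraries would have been under 99.6, the lowest of any gene. As for Tnnt2 and Actg2, the test therefore cannot count as evidence of its rise. Fhl2, a LIM-only cofactor that binds SRF, rose from 2855 and 2542 to 6135 and 5448 at 2 h (log2 change 1.10 ± 0.14, adjusted p = 9.3e-07).

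The serum response declined between 6 and 12 h in most of the set. Against serum 6 h, 33 genes were lower at 12 h and none higher, when 20.6% of all genes were lower and 19.3% higher, and the median log2 change was -0.62. The called falls were led by Tpm1 (-1.34 ± 0.11), Vcl (-1.20 ± 0.10) and Myh9 (-1.11 ± 0.10). Fhl1 changed by -1.38, which was not called. Acta2 fell by 0.38 and Tpm2 by 0.36 on the log2 scale, among the smaller called falls. From 2 to 6 h, 14 genes were lower and 4 higher (24.3% each of all genes), and this split was 9 and 10 with equal totals and 8 and 10 under quantile normalization. Itga5 (-2.27 ± 0.09), Pxn (-1.37 ± 0.08) and Vcl (-1.15 ± 0.10) fell most, and Lims1 (0.60 ± 0.07) and Parva (0.35 ± 0.06) rose. The serum mean was highest at 2 h for 25 genes, at 6 h for 15 and at 12 h for none.

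**Figure D4:**
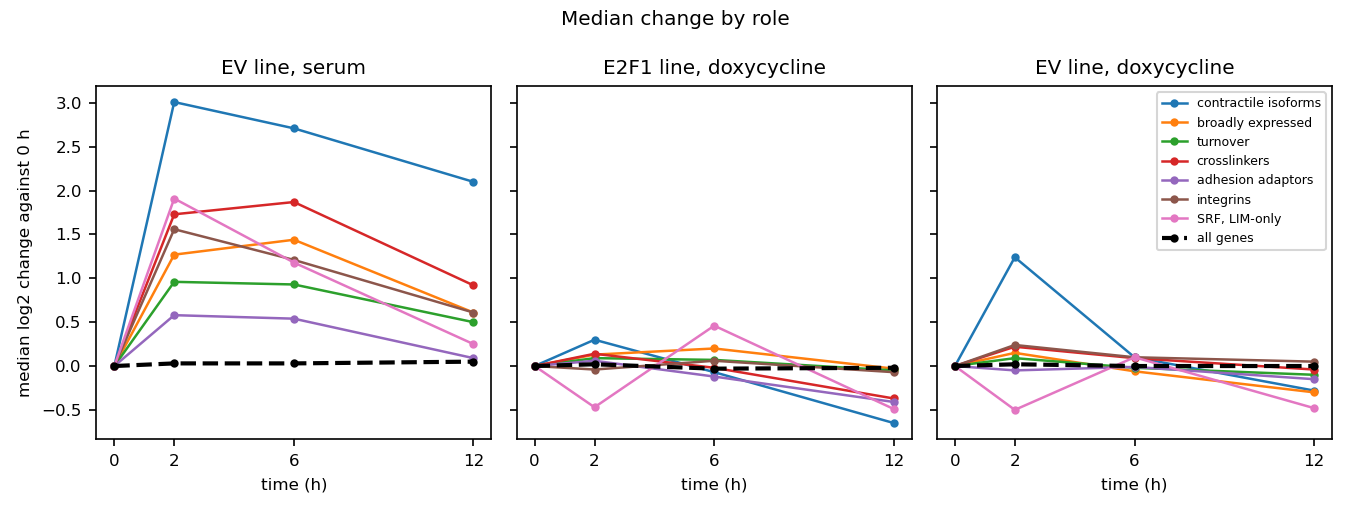
Median log2 change against 0 h by role (lines) at 2, 6 and 12 h, for serum in the EV line (left), E2F1 induction (middle) and doxycycline in the EV line (right), with all genes as the dashed line. In serum the contractile isoforms lead with 3.01 at 2 h, Tnnt2 and Actg2 included, which owe their rows to serum. In the E2F1 line at 12 h they are lowest, at -0.65.

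Serum was also set against EV cells kept in doxycycline for the same time. At 6 h, 36 genes were higher and 1 lower (35.8% and 30.0% of all genes), and at 12 h 34 were higher and 3 lower (37.9% and 32.5%). At 12 h Srf was called in this comparison, at 3908 and 4375 with serum against 2073 and 2073 with doxycycline (log2 difference 1.00 ± 0.19, adjusted p = 0.00018). Zyx, Pxn and Cnn3 were the 3 lower genes, as they were against EV 0 h. The authors' deposited table for serum 2 h listed 1268 genes, and 10 of the 40 were among them, all higher. It held only genes with an absolute log2 fold change of at least 2.001. That table gave 4.0 for Itga5, 3.02 for Acta2 and 2.79 for Vcl. Their tables for E2F1 at 6 and 12 h listed 264 and 510 genes under a similar limit, with 0 of the 40 in either.

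With E2F1 induction the set held both called rises and called falls, in shares not far from those of all genes. At 12 h 10 genes were higher and 15 lower than at 0 h, when 31.8% of all genes were higher and 29.7% lower, and the median log2 change of the set was -0.17 (all genes -0.02). The EV line in doxycycline had a median of -0.23 at 12 h (all genes 0.00). The median E2F1 change minus EV change was -0.01, so the downward median was shared by both lines. The largest rises were those of Tagln2, Actn4, Diaph1 and Tpm3, and the largest falls those of Myl9, Cnn2, Acta2 and Srf. At 6 h 9 were higher and 6 lower (28.8% and 22.9% of all genes). With equal totals this 6 h split was 8 and 13, under quantile normalization 8 and 16, and 8 calls were left without E2F1 0 h replicate 2 or without 6 h replicate 1. The contractile isoforms had 1 gene higher and 4 lower at 12 h, the adaptors 1 and 5, the broadly expressed proteins 3 and 3, the turnover genes 3 and 0, the crosslinkers 1 and 2, the integrins 1 and 0 and the Srf group 0 and 1. Over the same time the summed level of the 10 fibroblast markers went from 1102554 and 1113411 to 690361 and 717714, and its part in these falls was not tested.

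Tagln2 in the E2F1 line measured 5358 and 5678 at 0 h, 5710 and 6664 at 2 h, 9776 and 9145 at 6 h and 19516 and 20289 at 12 h. The pairs at 2, 6 and 12 h lay above all EV libraries without serum, and the 12 h pair was above serum 12 h (10322 and 10400) and below serum 2 h. Its log2 change at 6 h was 0.78 ± 0.16 (adjusted p = 0.00052) and that at 12 h 1.85 ± 0.16 (adjusted p = 1.82e-08). Actn4 measured 16547 and 16580, then 33149 and 30006 at 6 h and 43001 and 39198 at 12 h, a log2 change of 1.31 ± 0.10 (2.48-fold, adjusted p = 4.29e-09). The 6 and 12 h pairs lay above the E2F1 line at 0 and 2 h and above every EV library without serum.

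Diaph1 rose from 1880 and 1785 to 3225 and 2820 at 6 h and 3686 and 3375 at 12 h. Both times lay above all serum and EV values of this gene, whose highest was 2422. The log2 changes were 0.72 ± 0.12 and 0.94 ± 0.12 (adjusted p = 5.25e-05 and 1.54e-06). Tpm3 rose from 10958 and 11673 to 18580 and 19043 (0.73 ± 0.08) and Tpm2 from 6431 and 6861 to 9455 and 9727 (0.53 ± 0.09). Smaller called rises were Pfn1 (0.38), Tpm4 (0.36), Lims1 (0.32), Itgb1 (0.29) and Cfl1 (0.28). Among these, leaving out a library ended the calls of Pfn1, Tpm4 and Cfl1, and quantile normalization that of Lims1.

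Myl9 fell furthest, from 423 and 646 at 0 h to 314 and 451 at 6 h and 115 and 157 at 12 h. The 12 h pair lay below both 0 h libraries, and the log2 change was -1.95 ± 0.24 (adjusted p = 1.45e-06). Cnn2, calponin 2, fell from 14558 and 17450 to 6231 and 7966 (-1.18 ± 0.12, adjusted p = 1.3e-07). Acta2 measured 11752 and 13298 at 0 h, 11306 and 12501 at 6 h and 6264 and 6026 at 12 h, so only the 12 h pair lay below the 0 h pair, with a log2 change of -1.02 ± 0.14 (adjusted p = 3.54e-06). The EV line showed a fall of Acta2 as well, to 2592 and 3433 at 12 h of doxycycline.

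Srf fell from 3003 and 4546 to 1998 and 1890 at 12 h of E2F1 (-0.93 ± 0.19, adjusted p = 0.000463). The 0 h pair was wide, and the 12 h pair lay below both of its libraries. Tpm1 went from 19530 and 23332 to 11352 and 12179 (-0.86 ± 0.11) and Tes from 1819 and 1445 to 935 and 842 at 6 h and 1027 and 845 at 12 h (-0.80 ± 0.13). The other called falls at 12 h were those of Zyx (-0.79), Myl6 (-0.67), Cald1 (-0.65), Vcl (-0.63), Cnn3 (-0.47), Pxn (-0.41), Tln1 (-0.41), Actn1 (-0.39) and Flna (-0.37). The cytoplasmic actins were near their start at 12 h. Actg1 had been called higher at 6 h, at 66628 and 57457 against 41837 and 47531 (0.47 ± 0.14, adjusted p = 0.0109), a call lost without E2F1 0 h or 6 h replicate 1, and stood at 44008 and 43465 at 12 h (-0.03, not called). Actb was at 67580 and 71009 at 12 h against 68675 and 76063, a log2 change of -0.06 ± 0.12 that was not called, and Itga5 at 5080 and 4689 against 4968 and 5492 (-0.10 ± 0.09). Between 6 and 12 h of E2F1, 4 genes rose and 15 fell (15.1% and 20.2% of all genes), a split of 6 and 14 with equal totals and 7 and 14 under quantile normalization. Without E2F1 6 h replicate 1 it was 12 calls in place of 19.

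Ratios between pairs of genes shifted with E2F1. The ratio of Actn4 to Actn1 counts in the E2F1 line was 1.43 and 1.51 at 0 h, 3.22 and 3.02 at 6 h and 5.0 and 4.52 at 12 h. It stayed between 1.18 and 2.0 in all EV libraries, serum included. The ratio of Tpm3 to Tpm1 was 0.561 and 0.5 at 0 h and 1.64 and 1.56 at 12 h of E2F1, against 0.373 and 0.358 at EV 0 h, 0.253 and 0.255 at 2 h of serum and 0.539 and 0.609 at 12 h of serum, so it rose late in serum too. Tagln2 and Acta2 encode different kinds of protein and were paired after their opposite changes were seen. Tagln2 per Acta2 count was 0.456 and 0.427 at 0 h and 3.12 and 3.37 at 12 h of E2F1, and 0.199 and 0.21 at 12 h of serum. In the EV line with doxycycline the last ratio also rose, to 1.07 and 1.08 at 12 h from 0.483 and 0.591, so part of that movement was shared by the lines. Ratios of counts compare libraries and not the levels of the 2 genes, since gene lengths differ.

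The doxycycline changes of the 2 lines were compared directly, as the E2F1 change minus the EV change. At 12 h 11 genes were higher and 12 lower in this difference (27.3% and 23.3% of all genes), and at 6 h 6 and 1 (22.2% and 12.3%). Tagln2 differed by 2.15 ± 0.22, Actn4 by 1.34 ± 0.14, Tpm3 by 0.97 ± 0.11 and Diaph1 by 0.86 ± 0.16 at 12 h, all called. Myl9 differed by -1.13 ± 0.34 (adjusted p = 0.00952), a call lost without E2F1 0 h replicate 2 or 12 h replicate 1, and Cnn2 by -0.63 ± 0.17 (adjusted p = 0.00447). For Acta2 the difference was 0.28 ± 0.19 (adjusted p = 0.242) and for Srf -0.18 ± 0.27 (adjusted p = 0.611), neither called. At 6 h Tagln2, Actn4 and Diaph1 were again higher, by 0.79, 0.76 and 0.74, and Tes was lower by -0.78. The 6 h split was 4 and 6 with equal totals and 6 and 8 under quantile normalization, and 4 calls were left without EV 0 h replicate 2 or without EV 6 h replicate 1.

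The EV line in doxycycline showed no call in the set at 6 h and a broad shift downward at 12 h, of which few genes passed the test. Whether doxycycline or longer starvation underlies these changes cannot be told apart here. At 6 h none of the 40 was called by limma (0.134% of all genes were higher and 0.0% lower), and at an unadjusted p under 0.05 there were 2, both higher (5.0%, against 5.9% of all genes). At 12 h 6 were lower and none higher (3.42% and 0.749%). Both 12 h libraries lay below both 0 h libraries for 26 of the 40 genes and above them for 3 (21.8% and 22.2% of all genes), and the median log2 change was -0.23. The 6 were Acta2 (-1.30 ± 0.14), Srf (-0.75 ± 0.19), Actg1 (-0.67 ± 0.14), Actb (-0.60 ± 0.12), Cnn2 (-0.55 ± 0.12) and Actn1 (-0.37 ± 0.09). Acta2 had gone from 6729 and 8028 to 2592 and 3433, and both 12 h libraries lay below every other library of this gene. Actb, Actg1 and Srf differed widely between the 2 starved EV libraries, and the count was 1 without EV 0 h replicate 2 or without EV 12 h replicate 1 and 13 without EV 0 h replicate 1. With equal totals 6 were lower and 1 higher, and under quantile normalization 7 and 1.

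At 2 h of doxycycline Acta2 and Vcl were called higher and Srf lower in both lines. In the EV line 7 genes were higher and 2 lower (4.93% and 2.43% of all genes), and in the E2F1 line 2 and 1 (0.865% and 0.99%), or 2 and 3 under quantile normalization. Acta2 went from 6729 and 8028 to 17249 and 17556 in the EV line and from 11752 and 13298 to 18756 and 19542 in the E2F1 line, so each 2 h pair lay above its 0 h pair. The log2 changes were 1.24 ± 0.14 and 0.61 ± 0.14 (adjusted p = 5.92e-05 and 0.0246). Vcl changed by 0.68 ± 0.10 and 0.53 ± 0.10, to 12749 and 13788 in the EV line and 13355 and 13062 in the E2F1 line. Srf fell in both, to 1812 and 1823 and 2036 and 2308, by 0.94 and 0.77 on the log2 scale (adjusted p = 0.00774 and 0.0499).

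In the EV line Actg2 (30 and 18 to 132 and 197, log2 change 2.74 ± 0.36) and Myl9 (188 and 241 to 825 and 864, 1.98 ± 0.24) rose as well at 2 h. Fhl2 fell by 0.50, a call lost when any of the 4 libraries was left out. The EV 2 h values of Acta2, Myl9 and Vcl were above those of both lines at 0 h, and those of Actg2 overlapped with the E2F1 line's 145 and 124. Of the 40 genes, 16 lay above both 0 h libraries in both lines at 2 h and 4 below (12.7% and 10.3% of all genes). The 3 calls of the E2F1 line fell to 0 or 1 when any of its 4 libraries was left out, and the 9 of the EV line to 5 and 4 without EV 2 h replicate 1 or 2. At 0 h the lines already differed, with 7 genes of the set higher in the E2F1 line and 2 lower (8.86% and 6.17% of all genes). Actg2 (2.48 ± 0.36), Myl9 (1.29 ± 0.24) and Acta2 (0.77 ± 0.14) led. The split was 11 and 1 with equal totals, and without E2F1 0 h replicate 2 there were 5 calls in all.

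Set side by side, serum and E2F1 moved the set apart at 12 h. Their comparisons share no library, but come from different lines, and E2f1 itself was above its 0 h values in both. Of the 40 genes 9 were higher in both (22.5%, and 19.0% of all genes), namely Tpm2, Tagln2, Tpm3, Tpm4, Cfl1, Pfn1, Actn4, Lims1 and Itgb1. A further 7 were higher with serum and lower with E2F1 (17.5%, and 5.69% of all genes): Acta2, Myl9, Cnn2, Myl6, Flna, Actn1 and Vcl. Of these, Acta2, Cnn2 and Actn1 were also called lower in the EV line at 12 h of doxycycline. For Acta2 and Actn1 the E2F1 change minus the EV change was not called. The serum calls of Cnn2 and Lims1 at 12 h were lost with equal totals. Cnn3, Zyx and Pxn were lower in both (7.5%, and 15.3% of all genes), and none was higher with E2F1 and lower with serum (3.52% of all genes). Among the rest, 13 were higher with serum and not called with E2F1 (32.5%, and 11.3% of all genes). Both cytoplasmic actins were among the 13, as were Tnnt2, Actg2 and Fhl1, which owe their rows to serum. Diaph1 alone was higher with E2F1 and not called with serum (2.5%, and 9.31% of all genes). Over the 40 genes the 2 sets of log2 changes had a Pearson r of -0.06 and a Spearman rho of 0.21, and over all 11208 genes 0.45 and 0.46. These are descriptions, since genes share libraries and are not independent.

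**Figure D5:**
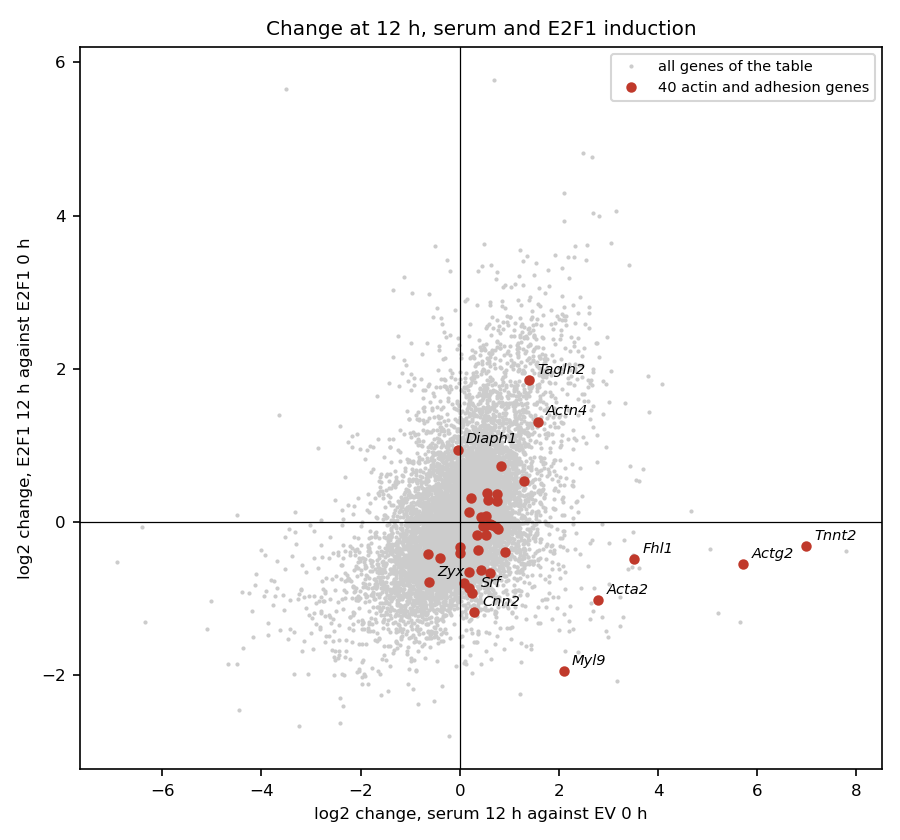
Log2 change at 12 h of serum against EV 0 h (x axis) and at 12 h of E2F1 induction against E2F1 0 h (y axis), for all 11208 genes (grey) and the 40 actin and adhesion genes (red, some named). Acta2 and Myl9 lie at the lower right, higher with serum and lower with E2F1, and Tagln2 and Actn4 lie at the upper right. Acta2 also fell in the EV line at 12 h of doxycycline, which is not plotted.

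The E2F1 change was then tested against the serum change. At 12 h it was below the serum change for 28 genes and above it for 1 (23.8% and 25.0% of all genes), and at 6 h for 35 and 2 (27.6% and 30.3%). The exception at 12 h was Diaph1 (0.99 ± 0.16, adjusted p = 8.34e-05), joined at 6 h by Pxn (0.63 ± 0.11). Acta2 differed by -3.81 ± 0.19, Myl9 by -4.05 ± 0.34 and Actb by -0.80 ± 0.18. Tagln2, which rose with both, differed by 0.45 ± 0.22 at 12 h (adjusted p = 0.104) and Actn4 by -0.27 ± 0.14 (adjusted p = 0.125), neither called.

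Genes with a CArG box were compared with the rest of the set. The 8 with a box were all higher at 2 h of serum, median log2 change 1.91 (0.77 to 4.53), and of the 27 with a promoter entry and no box 26 were higher, median 1.25. Fhl1, the highest of the 8, and Tnnt2 among the 27 owe their rows to their serum values. At 12 h of E2F1, 5 of the 8 were lower and none higher, median -0.65, and of the 27 without a box 9 were lower and 9 higher, median -0.10. In the EV line at 12 h of doxycycline, 3 of the 8 were lower and none higher, median -0.52. Of the 27 without a box 2 were lower and none higher, median -0.15. Within the set, the lower median of the genes with a box was thus present in both lines. Among table genes outside the set, 122 held a box. Of these 53.3% were higher at 2 h of serum and 49.2% lower at 12 h of E2F1, against 37.5% and 29.7% of the 8479 genes without one. In the EV line at 12 h of doxycycline, 2.46% of the 122 were lower, against 3.5% of those without a box. The median of the 122 was -0.01 there, unlike that of the 8 genes of the set. E2F motifs, searched on both strands as TTTCCCGC, TTTCGCGC, TTTGCCGC and TTTGGCGC, occurred in the promoter of 1 of the 35 genes, Cnn2 (2.86%), and of 5.1% of table genes. No match in these windows says nothing about binding elsewhere.

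At 2 h of serum most genes of the upstream pathway and of the wider family were higher too, and at later times fewer were. Over all genes, 37.5% were higher and 33.5% lower at 2 h, 36.5% and 31.0% at 6 h and 36.0% and 29.7% at 12 h. Of 23 genes of signalling upstream of SRF, 21 were higher and none lower at 2 h, 14 and 1 at 6 h and 12 and 3 at 12 h. Mrtfa, which encodes MRTF-A, measured 3617 and 2912 before and 12808 and 12336 after 2 h of serum, a log2 change of 1.95, and Elk3, a ternary complex factor, changed by 1.31. Of 47 other actin and adhesion genes, 34 were higher and 4 lower at 2 h, 32 and 7 at 6 h and 26 and 10 at 12 h. The largest rises at 2 h were those of Parvb (2.59) and Csrp1 (2.56), and the largest falls those of the membrane linker Rdx (-0.83) and Tln2 (-0.57). Of 10 other integrins, 6 were higher and 1 lower at 2 h, 2 and 3 at 6 h and 1 and 4 at 12 h, where their median was -0.04. At 6 and 12 h the share of these integrins called higher was thus below that of all genes. At 2 h Itgb3, the partner of αv, changed by 4.84 and Itgb8 by -2.81. The 2 smooth muscle markers with a row, Smtn and Lmod1, summed to 7060 and 6266 at 2 h of serum against 2651 and 2262 at EV 0 h. At 12 h of serum the sum was 1954 and 1479, below the start, with Smtn at -0.67 and Lmod1 at 1.34, both called.

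At 12 h of E2F1 these lists held both rises and falls, when 31.8% of all genes were higher and 29.7% lower. The list of genes upstream of SRF had 12 higher and 8 lower, the other actin and adhesion genes 15 and 20, and the other integrins 3 and 3. Among the rises were the slingshot phosphatase Ssh2 (2.15), which activates cofilin, the formin Diaph3 (1.98) and the membrane linker Ezr (2.19). Among the falls were Rhob (-1.03), Ssh1 (-0.89), the paxillin relative Tgfb1i1 (-1.88) and filamin C, Flnc (-1.83). Of the integrins, Itga1 rose by 1.98, and the collagen receptor subunit Itga11 fell by 1.59. The sum of the smooth muscle markers Smtn and Lmod1, which is mostly Smtn, was 2517 and 2891 at 0 h and 3321 and 3206 at 12 h. It thus did not fall as Acta2 and Myl9 did.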

How the data were processed

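The expression table held normalized counts that the authors had rounded to whole numbers, here treated as a score and not as raw counts. The submitters' processing notes name FastQC, Trimmomatic, HISAT2, featureCounts, DESeq2 and the build mm10. The scaling step, the annotation release and the use of strand in counting are not given in the sources used here. Exons of 12 of the 40 genes overlap another gene, so their counts may hold reads of that gene. Log2 fold changes and adjusted p-values that the authors deposited in separate tables were used only where named.

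A filter that asked for a value of at least 10 in any 2 libraries removed none of the 11208 genes. In the table as received, the lowest gene mean over all libraries was already 99.6. The log2 of (value + 1) was fitted by limma 3.58.1 (R 4.3.3), with a mean for each of 11 groups, empirical Bayes moderation with a trend and 11 residual degrees of freedom. Benjamini-Hochberg adjustment ran over all genes of a comparison, with a threshold of 0.05. A fold is 2 to the power of the log2 change and understates changes of low genes. On simulated data for serum 2 h against EV 0 h with 11208 genes, 88 of 100 genes changed by a log2 of 1 and 99 of 100 changed by 2 were recovered, and 11 unchanged genes were called. Only 200 genes were changed there, while 37.5% and 33.5% of all genes were called in the real comparison. These counts therefore check the code and do not give its error rates on the data. No batch is given in the labels, and raw depth is unknown.

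Alternatives were a pseudocount of 8, no filter, a mean of at least 500, equal totals, quantile normalization, a block for the replicate number, a fit of the compared groups alone, and fits without the 4 doxycycline 2 h libraries or without any 1 library. The genes, the lists and the tests were chosen with earlier results of these data known. Values in each library were given for 8 of a set of 10 genes (the other two, Tagln and Cnn1, were not analysed here) and for the largest called rise and fall of each role at serum 2 and 12 h and E2F1 6 and 12 h. Those of Myh9, Tpm3, Zyx and Itgb5 were added after they were seen. Pathway genes named were at most 2 rises and 2 falls of a list. Positions and exon lengths came from GENCODE M21 (GRCm38), which held 10977 of the 11208 identifiers in the same version, and promoters from RefSeq (GRCm38.p6). Tables and figures were made in Python 3.11.15 (pandas 2.3.3, numpy 2.4.6, matplotlib 3.10.9).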

Additional observations from a re-analysis of the deposited data

Results flagged for a closer look

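The genes below are those of the set whose doxycycline change differed between the E2F1 and the EV line, by limma's test of the difference (Benjamini-Hochberg adjusted p under 0.05 over all genes). Values are the E2F1 change minus the EV change in log2 units. At 6 h Tagln2 differed by 0.79, Actn4 by 0.76, Diaph1 by 0.74, Actg1 by 0.56, Tpm3 by 0.55 and Pfn1 by 0.45, and Tes by -0.78.

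At 12 h the positive differences were 2.15 for Tagln2, 1.34 for Actn4, 0.97 for Tpm3, 0.86 for Diaph1, 0.82 for Tpm2, 0.70 for Tpm4, 0.64 for Actg1, 0.61 for Pfn1, 0.54 for Actb, 0.54 for Cfl1 and 0.47 for Lims1. They did not all come from a rise with E2F1. Actb and Actg1 had E2F1 changes of -0.06 and -0.03 and called falls in the EV line of -0.60 and -0.67. For Tpm4 the E2F1 change was 0.36 and the EV change -0.34, which was not called.

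The negative differences at 12 h were -1.13 for Myl9, -0.77 for Cnn3, -0.64 for Cald1, -0.63 for Cnn2, -0.58 for Tpm1, -0.55 for Zyx, -0.53 for Tes, -0.47 for Pxn, -0.44 for Myl6, -0.44 for Vcl, -0.33 for Flna and -0.30 for Tln1. Cald1 fell by 0.65 with E2F1 and had an EV change of -0.01, not called. The 12 h calls of Actb, Actg1, Myl6, Myl9, Tes, Tln1 and Flna were each lost when certain single libraries of the 8 compared were left out.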

How the results depend on the processing

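Of 243 recomputed counts of called genes 222 stayed within 1.5 times the reported count. Under quantile normalization the counts were 5 in place of 3 (E2F1 2 h), 24 in place of 15 (E2F1 6 h) and 14 in place of 7 (E2F1 minus EV change at 6 h). With only the groups compared they were 7 for E2F1 2 h, 1 in place of 6 for EV doxycycline 12 h and 4 in place of 9 for the lines at 0 h. Leaving out a library, which assumes that the lone one left varies like the other groups, gave 0 to 1 for E2F1 2 h, 8 to 13 for E2F1 6 h, 4 to 9 for EV doxycycline 2 h, 1 to 13 for EV doxycycline 12 h, 12 to 14 in place of 19 for E2F1 12 against 6 h, 4 to 10 for the 6 h difference between lines and 5 to 9 for the lines at 0 h. For serum it gave 37 to 39 at 2 h, 36 to 38 at 6 h and 30 to 34 at 12 h, and for E2F1 12 h 22 to 25. Equal totals moved the median of all genes to -0.345 at serum 2 h, from 0.030, and to -0.147 at E2F1 6 h. Some directions turned: the median of the set at E2F1 6 h (0.04) was -0.02 with a mean of at least 500, -0.08 with equal totals and -0.18 under quantile normalization, and that of serum 6 against 2 h was 0.00 and 0.05 under the last 2. Single genes turned as well: at serum 2 h Diaph1 to -0.09 and Parva to -0.10 with equal totals, and Parva to -0.22 and Zyx to -0.07 under quantile normalization, which also turned Cnn3 at serum 6 h to -0.09 and Parva at E2F1 6 h to -0.03. The cause was not tested. With the replicate number as a block, 39 genes were called at serum 2 h, 37 at 6 h, 32 at 12 h, 26 at E2F1 12 h, 8 in place of 6 at EV doxycycline 12 h and 24 for the 12 h difference between lines. The labels do not say that equal numbers mark a pairing, and over 55 pairs of groups the deviations of same-numbered libraries correlated at -0.277 to 0.455 (median 0.031, 18 over 0.1), with 0.455, 0.311 and 0.303 among EV doxycycline 0, 6 and 12 h. Allowing 1 mismatch raised the promoters with a CArG box from 8 to 12. Raw depth is unknown, so its part in the limits of low genes such as Tnnt2 and Actg2 cannot be given.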
